A study of Mus musculus with 378 samples.

Results

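The Bcl2 family decides whether a cell keeps or loses the integrity of its mitochondria. The 6 genes Bcl2, Mcl1, Bcl2l1, Bcl2l11, Bax and Bak1 were taken by name from the 23420 genes of the deposited expression table, and all 6 were present. They were followed over single T cells and population libraries from B16F10 tumours, a transplanted melanoma of C57BL/6 mice. CD8 cells were also divided by whether RNA of Il7r was found; it encodes the chain through which T cells bind IL-7, a cytokine of T cell survival. The groups were T cells of wild type (WT) mice and of mice labelled IL27raKO (KO), which should lack Il27ra, the receptor chain for IL-27. All groups shared the tumour model and the strain, and the titles gave the cell type, CD8 or CD4. The labels give no animal, age or further allele, and the isolation text names CD8+ cells only. Each group's title also carries a word of its own, and a tag that is p2 in 3 groups and p3 in WT CD4 alone. What the word marks cannot be told apart from the group, nor what p3 marks from WT CD4.

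Bcl2, Mcl1 and Bcl2l1 (which encodes BCL-XL) are pro-survival members that hold the death-inducing members in check. Bcl2l11 encodes BIM, a BH3-only protein that binds the pro-survival members and can activate the effectors. Bax and Bak1 encode the effectors that permeabilise the outer mitochondrial membrane. In T cells, IL-7 signals are known for sustaining Bcl2, activation for raising Bcl2l1, and BIM for removing cells at the end of a response.

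Expression was measured by Smart-seq2, a full-length cDNA method, as FPKM (fragments per kilobase of transcript, scaled to sequencing depth). Of 374 single-cell libraries, 76 had under 1000 genes above 0 FPKM and were left out, which kept 67 CD8 cells from WT and 74 from KO, and 79 CD4 cells from WT and 78 from KO. Each group also had 1 population library. Median genes per kept cell were 2919, 2797, 2307 and 2650.5 in that order, and median estimated reads per cell were 263724, 315648, 214605 and 278274. Each group counts as 1 sample, so the spread given is over cells and no test between groups was possible. The targeted gene, Il27ra, had no lower mean in KO single cells: log2(FPKM + 1) was 1.57 in WT and 3.25 in KO CD8 cells, and 3.02 and 3.24 in CD4 cells. In the population libraries it was lower in KO in CD4 (95.2 FPKM against 255.97 in WT) and higher in KO in CD8 (90.8 against 47.6). Every direction given for KO therefore follows the label. Cd8a was above 0 in 83.6% and 94.6% of the WT and KO CD8 cells and in at most 7.69% of CD4 cells, and Cd4 in 79.7% and 89.7% of the WT and KO CD4 cells and in at most 8.96% of CD8 cells. The summed level of the 7 melanoma markers was 14658 FPKM in the WT CD8 population library and between 37.5 and 85.7 in the others. The 4 class II antigen presentation genes summed to 158.1 FPKM there and to between 5193 and 20736 in the others. In the single cells the medians of these sums were at most 10.4 and 0 FPKM. At least 1 melanoma marker was above 0 in 94.9 to 98.5% of the cells of a group, with a highest sum of 1594 FPKM. Macrophage and monocyte genes were above 0 in 8.86 to 14.9%, and class II genes in 17.6 to 30.4%. For dendritic cell and neutrophil genes it was 48.1 to 59.7% and 50 to 64.2%, with median sums of at most 0.61 and 1.36 FPKM. Endothelial, B cell, NK cell and fibroblast genes were above 0 in at most 28.2%. Single cells could hold much of such RNA. The highest class II sum in 1 cell was 205640 FPKM in WT CD8 and 132659 in KO CD8. In CD4 cells it was 1740 in WT and 156487 in KO. At least 3 melanoma, macrophage and monocyte, class II or dendritic cell markers were above 0 in 21 WT and 16 KO CD8 cells. The same held for 25 WT and 23 KO CD4 cells. The part of such RNA in the members' values was not tested. In a population library, fewer cells with an RNA and less RNA per cell cannot be told apart.

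The members lie on 5 chromosomes in GENCODE M21 on mm10. Bcl2 is on chromosome 1 at 106538178 to 106714274, Mcl1 on chromosome 3 at 95658788 to 95663176 and Bax on chromosome 7 at 45461697 to 45466898. Bcl2l1 (152780668 to 152831728) and Bcl2l11 (128126038 to 128162547) are both on chromosome 2, and Bak1 is on chromosome 17 at 27019810 to 27029009. The 250 bases before a start of the 4 members that were past 1 log2 unit in a single-cell comparison below are shown, as the regions where regulators of these genes could act, on GRCm38.p6 from RefSeq, 5′ to 3′ along the gene. Bcl2l1 is shown at the outermost of its 3 starts and Bcl2l11 at the first of 2. Capitals mark matches, on either strand, to the letters TTCNNNGAA (STAT), GTAAACA (FOXO) or CTTTGA (TCF).
Bcl2, chr1:106714291-106714540, minus strand: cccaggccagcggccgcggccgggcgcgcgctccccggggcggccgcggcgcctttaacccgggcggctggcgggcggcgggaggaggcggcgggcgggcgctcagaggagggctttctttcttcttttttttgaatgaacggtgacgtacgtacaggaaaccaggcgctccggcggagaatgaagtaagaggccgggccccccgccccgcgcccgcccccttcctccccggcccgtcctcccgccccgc
Bcl2l1, chr2:152831729-152831978, minus strand: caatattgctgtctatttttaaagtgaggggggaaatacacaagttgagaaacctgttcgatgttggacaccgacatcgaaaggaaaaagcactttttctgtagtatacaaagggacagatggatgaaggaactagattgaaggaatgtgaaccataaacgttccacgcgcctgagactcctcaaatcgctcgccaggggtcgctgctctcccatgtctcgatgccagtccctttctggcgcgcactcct
Bcl2l11, chr2:128125788-128126037, plus strand: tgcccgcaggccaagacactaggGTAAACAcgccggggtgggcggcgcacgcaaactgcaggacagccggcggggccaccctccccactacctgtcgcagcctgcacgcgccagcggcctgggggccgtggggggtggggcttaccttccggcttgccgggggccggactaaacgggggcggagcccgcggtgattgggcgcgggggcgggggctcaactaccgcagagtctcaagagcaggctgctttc
Bax, chr7:45466899-45467148, minus strand: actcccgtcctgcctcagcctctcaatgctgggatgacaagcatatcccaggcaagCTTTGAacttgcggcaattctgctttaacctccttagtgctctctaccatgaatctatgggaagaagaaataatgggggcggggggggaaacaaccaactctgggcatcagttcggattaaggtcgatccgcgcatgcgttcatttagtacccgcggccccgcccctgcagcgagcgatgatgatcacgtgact
The Bcl2 and Bcl2l11 windows are rich in G and C, at 74.8% and 72%, against 47.6% for Bcl2l1, 54% for Bax and a median of 52.4% over 32851 promoter windows of this length. The Bcl2l11 window holds the FOXO letters once, and 3.17% of all windows hold them. The Bax window holds the TCF letters once, as do 13.8% of all windows. The STAT letters, found in 7.02% of all windows, are in none of these 4. A match is a description of letters and says nothing of binding.

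The members differed widely in how much RNA stood behind a positive cell. In each library, the commonest low value of FPKM times length over genes with 1 transcript was taken as worth 1 read. This gave an estimate of reads per cell. Of each member's low values, 88.9% (Bcl2l11) to 100% came out within 0.1 of a whole read, with the length chosen among 5 candidates to make this share highest. Bcl2 was above 0 FPKM in 35.2% of all kept cells, with a median of 250.5 reads in those cells, and only 6 of them held 1 read. Bax was found in 49.3% of cells with a median of 63.6 reads, Mcl1 in the same share with 60.9 reads and Bcl2l1 in 31.5% with 118.3 reads. Bcl2l11 was found in 86 cells with a median of 43.98 reads, and 17.4% of those cells held 1 read. Bak1 was the least abundant: 48 cells, a median of 3.0 reads, and 22.9% of them on 1 read. The 76 libraries under the 1000-gene threshold held 6 member detections in all, 3 of them Bcl2 and 0 of them Bax, which at 0 of 76, taking 3 counts as the limit, allows a share of up to 3.95%. The 5 libraries just outside the threshold (849 to 977 genes) and the 5 just inside (1050 to 1148 genes) had 2 member detections each.

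Most single cells showed RNA of only a few members. The median number above 0 was 2 of 6 in each group except WT CD4 cells, where it was 1. No member was found in 12 of 67 CD8 cells from WT (17.9%, exact 95% interval 9.61 to 29.2%) and 2 of 74 from KO (2.70%, 0.329 to 9.42%), and in 18 of 79 CD4 cells from WT (22.8%, 14.1 to 33.6%) and 6 of 78 from KO (7.69%, 2.88 to 15.99%). The WT shares were the higher ones in both cell types, and WT cells also had the lower median reads. Kept libraries at 0 for B2m or for all Cd3 genes, which T cells should hold, were also more frequent in WT: 11 of 67 against 3 of 74 KO in CD8, and 7 of 79 against 1 of 78 KO in CD4. Without them KO minus WT was 1.46 for Bcl2 in CD8 cells, and 1.58 for Bax and 1.59 for Bcl2l1 in CD4 cells. The other CD8 differences went from 0.18 to -0.73 for Bax, -0.53 to -0.94 for Bcl2l1 and 0.82 to 0.38 for Mcl1. Those of Bcl2l11 and Bak1 went from 0.51 to 0.22 and from -0.43 to -0.605. At least 1 pro-survival member was seen in 67.2% (WT) and 79.7% (KO) of CD8 cells, and in 62.03% (WT) and 80.8% (KO) of CD4 cells. At least 1 of Bcl2l11, Bax and Bak1 was found in 70.1%, 70.3%, 48.1% and 70.5%, in the same order. Intervals here and below cover counting error only.

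**Figure D1:**
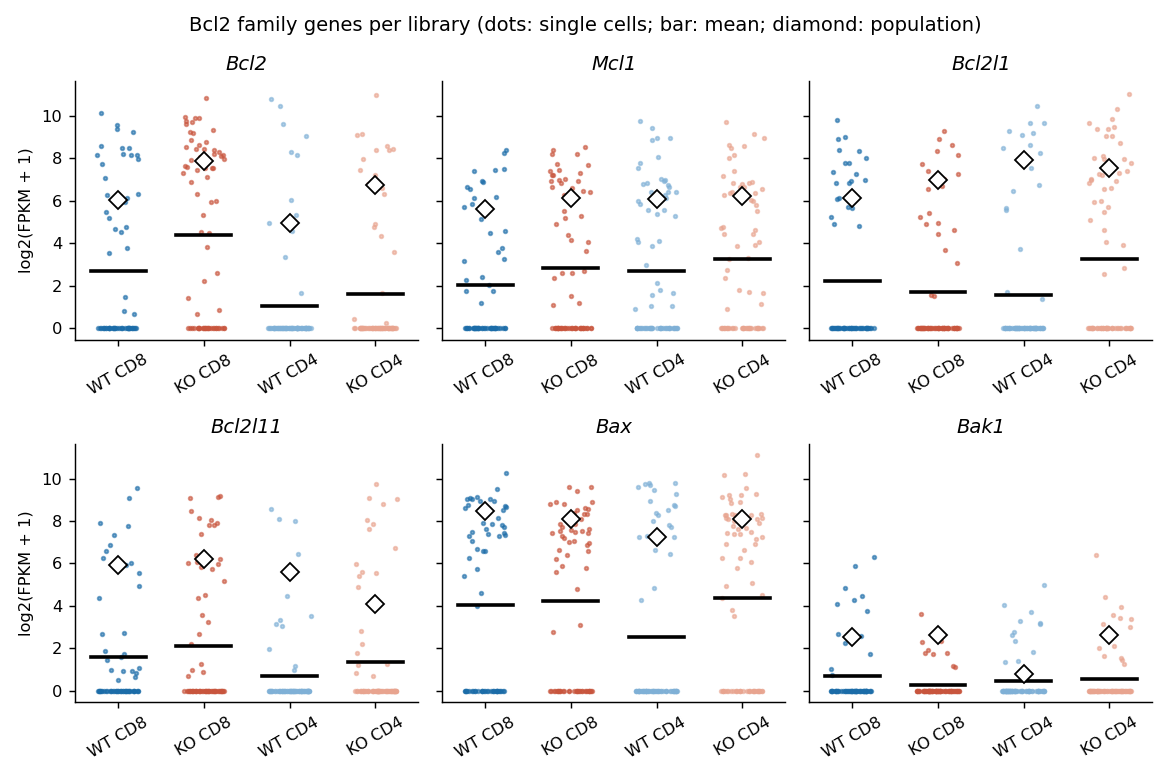
Level of each member as log2(FPKM + 1) on the vertical axis for the 4 groups, with 1 dot per kept single cell (67, 74, 79 and 78 cells), a bar for the mean over cells and an open diamond for the population library. For Bcl2 both the bar and the diamond are highest in KO CD8.

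Bcl2 had a higher mean level in KO than in WT cells and in CD8 than in CD4 cells. In WT CD8 cells FPKM ran from 0 to 1117 with a median of 0, and in KO CD8 cells from 0 to 1838 with a median of 30.4. In CD4 cells both medians were 0, with highest values of 1795 in WT and 2029 in KO. All 4 groups start at 0 and overlap, and the share of cells above 0 differed between them. Bcl2 was above 0 in 28 of 67 WT CD8 cells (41.8%, 29.8 to 54.5%) and 45 of 74 KO CD8 cells (60.8%, 48.8 to 71.96%). It was above 0 in 12 of 79 WT CD4 cells (15.2%, 8.10 to 25.0%) and 20 of 78 KO CD4 cells (25.6%, 16.4 to 36.8%). The intervals of each CD8 group and the CD4 group of its genotype do not overlap, while those of KO and WT overlap within both cell types. With libraries thinned to 100000 reads, which left out 2 WT CD8, 1 KO CD8 and 1 WT CD4 library below that depth, the expected shares were 38.9% in WT and 57.7% in KO CD8, and 15.1% and 23.05% in CD4. The order stayed the same, but Bcl2-positive cells held a median of 250.5 reads, so thinning could move these shares only a little. The part of depth was not tested.

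On the log2(FPKM + 1) scale, mean Bcl2 was 4.39 ± 4.06 in KO CD8 (SD over cells, n = 74) against 2.67 ± 3.60 in WT CD8 (n = 67), so KO was 1.72 higher. The population libraries gave 231.4 FPKM in KO and 64.9 in WT CD8, a log2 difference of 1.82. In CD4 cells the means were 1.61 ± 3.13 in KO (n = 78) against 1.04 ± 2.71 in WT (n = 79), so KO was 0.57 higher. There the population libraries gave 105.2 FPKM in KO and 29.6 in WT, a log2 difference of 1.80. Bcl2 was thus higher under the KO label in both kinds of library and both cell types, taking each group whole. Within Il7r-positive CD8 cells KO minus WT was -0.44. The WT CD8 population library is the one whose melanoma markers summed to 14658 FPKM. The part of that RNA in the population difference was not tested. The CD4 single-cell difference came with almost equal mean FPKM, 70.5 in KO and 66.98 in WT. Between cell types, Bcl2 was 1.63 higher in CD8 than in CD4 WT cells and 2.79 higher in KO cells, with population log2 differences of 1.11 and 1.13.

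Mcl1, whose protein is short-lived and needed by T cells at most stages, was found at similar shares in all groups. In CD8 cells FPKM ran from 0 to 330.6 in WT (median 0) and to 372.1 in KO (median 0.56), and in CD4 cells from 0 to 857 in WT (median 0) and to 830 in KO (median 4.91). The shares of cells above 0 were 40.3% (28.5 to 52.996%), 50% (38.1 to 61.9%), 48.1% (36.7 to 59.6%) and 57.7% (45.98 to 68.8%), and all of these intervals overlap. The population libraries lay close together too, at 47.2, 69.2, 66.8 and 74.04 FPKM. Mean log2(FPKM + 1) was higher in KO by 0.82 in CD8 and by 0.55 in CD4 cells, both under the 1-unit difference used here to mark a gene. CD8 minus CD4 was -0.67 in WT and -0.40 in KO cells, and -0.49 and -0.10 between the population libraries.

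Bcl2l1 stood out in KO CD4 cells. FPKM ran from 0 to 2083 there, against 0 to 1423 in WT CD4, 0 to 899 in WT CD8 and 0 to 619 in KO CD8 cells, with a median of 0 in every group. It was above 0 in 35 of 78 KO CD4 cells (44.9%, 33.6 to 56.6%) and 17 of 79 WT CD4 cells (21.5%, 13.1 to 32.2%), intervals that do not overlap. In CD8 cells the shares were 31.3% (20.6 to 43.8%) in WT and 28.4% (18.5 to 40.05%) in KO. Mean log2(FPKM + 1) was 3.23 ± 3.86 in KO CD4 (n = 78) against 1.54 ± 3.21 in WT CD4 cells (n = 79), so KO was 1.69 higher. The population libraries went the other way, with 182.9 FPKM in KO and 241.8 in WT CD4, a log2 difference of -0.40. In the CD8 comparison the 2 kinds of library also differed in sign, at -0.53 in single cells and 0.84 between populations. By the log of mean FPKM the CD4 single-cell difference was 0.86, under 1 unit. A single direction for Bcl2l1 under the KO label is therefore not given by these data.

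Bcl2l11, the BIM gene, had a higher mean in CD8 than in CD4 cells, by under 1 log2 unit. In CD8 cells FPKM ran from 0 to 750 in WT and to 575 in KO, and in CD4 cells from 0 to 381.6 in WT and to 867 in KO, with a median of 0 throughout. It was above 0 in 38.8% (27.1 to 51.5%) and 37.8% (26.8 to 49.9%) of WT and KO CD8 cells, and in 15.2% (8.10 to 25.0%) and 25.6% (16.4 to 36.8%) of WT and KO CD4 cells. Only the WT pair of intervals does not overlap. Above 10 FPKM the CD8 shares were 19.4% in WT and 28.4% in KO, and the CD4 shares 7.59% and 16.7%. Mean log2(FPKM + 1) was 0.91 higher in CD8 than in CD4 WT cells and 0.75 higher in KO cells, with population log2 differences of 0.32 and 2.13. Of all tested genes, 76.7% in WT and 59.2% in KO were higher in CD8 single cells, with median differences of 0.33 and 0.10. Bcl2l11 lay above 82.9% of tested genes in WT and 86.3% in KO. KO cells had 0.51 more than WT in CD8 and 0.68 more in CD4. The CD4 population libraries went the other way, with 15.8 FPKM in KO and 47.9 in WT, a log2 difference of -1.54.

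Bax was the most widely found effector and was scarcest in WT CD4 cells. Median FPKM in CD8 cells was 23.1 in WT and 55.98 in KO, and in CD4 cells 0 in WT and 43.6 in KO, with lowest values of 0 and highest values of 1235, 786, 897 and 2188. It was above 0 in 25 of 79 WT CD4 cells (31.6%, 21.6 to 43.1%) and 45 of 78 KO CD4 cells (57.7%, 45.98 to 68.8%). The CD8 shares were 52.2% (39.7 to 64.6%) in WT and 56.8% (44.7 to 68.2%) in KO. Mean log2(FPKM + 1) was 4.38 ± 3.98 in KO CD4 (n = 78) against 2.54 ± 3.85 in WT CD4 (n = 79), so KO was 1.83 higher, with a population log2 difference of 0.83. By the log of mean FPKM it was 0.66, under 1 unit. WT CD4 is also the group with the tag p3. In CD8 cells the difference was 0.18, with -0.37 between populations. At 100000 reads the expected CD4 shares were 56.5% in KO and 31.9% in WT. Bax-positive cells held a median of 63.6 reads, so thinning could move these shares only a little. The part of depth in the gap was not tested.

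Bak1, the other effector gene, was near the detection limit everywhere. Its median was 0 in every group, its highest values were 78.7 (WT) and 11.1 (KO) FPKM in CD8 and 30.4 (WT) and 83.8 (KO) in CD4 cells, and the population libraries gave 4.77, 5.17, 0.73 and 5.16 FPKM. Shares of cells above 0 were 19.4% (10.8 to 30.9%), 12.2% (5.71 to 21.8%), 15.2% (8.10 to 25.0%) and 17.9% (10.2 to 28.3%). Thinned to 100000 reads they were 14.9%, 6.15%, 11.4% and 12.7%. Mean log2(FPKM + 1) differed by less than 1 unit in every comparison of these groups. By the log of mean FPKM, which a few high cells can set, KO minus WT in CD8 was -1.73 and CD8 minus CD4 was 1.04 in WT and -1.19 in KO.

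The members were then set against all genes tested. In CD8 cells 1 of 6 members (Bcl2) was at least 1 log2 unit higher in KO, when 5.94% of 9031 tested genes were, and 0 were lower, when 3.82% of genes were. The members' median difference was 0.34 and that of all tested genes -0.08. In CD4 cells 2 of 6 (Bcl2l1 and Bax) were higher, when 7.73% of 8176 genes were, and 0 were lower, when 0.342% were. The medians were 0.62 for the members and 0.17 for all genes. Between CD8 and CD4, 2 of 6 (Bcl2 and Bax) were higher in CD8 in WT cells, when 14.1% of genes were, with 0 lower when 2.08% were. In KO cells 1 of 6 (Bcl2) was higher, when 7.7% were, and 1 (Bcl2l1) was lower, when 2.79% were. The KO minus WT and CD8 minus CD4 comparisons share groups, so they are not separate evidence. Differences past 1 unit were common between single population libraries: 21.5% of genes were higher and 21.5% lower in KO CD8, where Bcl2 was the 1 member past it. They were 17.6% higher and 23.1% lower in KO CD4, where Bcl2 and Bak1 were higher and Bcl2l11 lower. For CD8 against CD4 they were 26% and 24.9% in WT, where Bcl2, Bax and Bak1 were higher and Bcl2l1 lower, and 23.5% and 17.3% in KO, where Bcl2 and Bcl2l11 were higher.

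**Figure D2:**
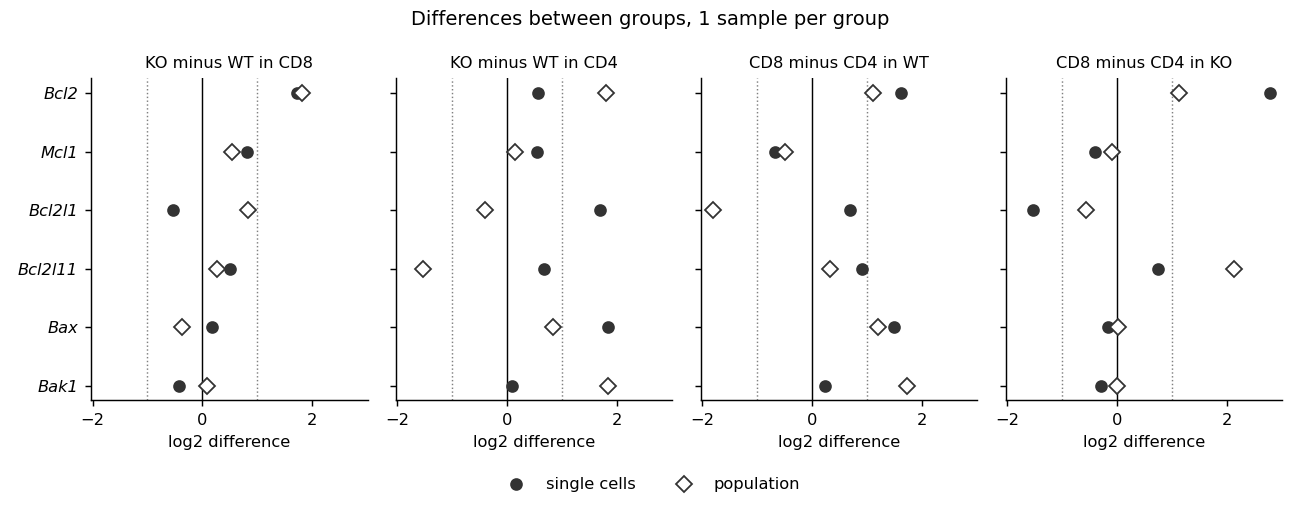
Differences of the 6 members on the log2(FPKM + 1) scale (horizontal axis) in 4 comparisons, with filled circles for means over single cells and open diamonds for the population libraries; dotted lines mark 1 unit either way. Bcl2 lies right of 0 for both kinds of library in all 4 panels, while Bcl2l1 changes side between them in the first 3.

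The makeup of family RNA followed these levels. FPKM is per transcript length, so the genes can be set beside each other. Bax and Bcl2 made up 40.6% and 24.7% of the 6 genes' summed mean FPKM in WT CD8 cells, and 28.1% and 42.1% in KO CD8 cells. In CD4 cells Bax led with 34.7% in WT and 36.4% in KO, followed by Bcl2l1 with 23.03% and 27.96%, and Bcl2 made up 19.1% and 13.3%. The summed mean FPKM of the 3 pro-survival genes divided by that of Bcl2l11, Bax and Bak1 in CD8 cells was 0.967 in WT and 1.57 in KO, and in CD4 cells 1.57 in WT and 1.22 in KO. In the population libraries this ratio was 0.434, 1.21, 1.69 and 1.24. Both kinds of library had a higher ratio in KO in CD8 and a lower one in KO in CD4. The WT CD8 population library, at 0.434, is the one whose melanoma markers summed to 14658 FPKM. The part of that RNA in the ratio was not tested. Mean FPKM can also rest on few cells: for Bcl2 in WT CD4 the 66.98 came from 12 of 79 cells. The highest member within a cell was Bcl2 in 17 of 67 WT CD8 (25.4%, 15.5 to 37.5%) and 28 of 74 KO CD8 cells (37.8%, 26.8 to 49.9%). It was Bcl2 in 6 of 79 WT CD4 (7.59%, 2.84 to 15.8%) and 7 of 78 KO CD4 cells (8.97%, 3.68 to 17.6%). Mcl1 led in only 3 WT CD8 and 7 KO CD8 cells but in 17 WT CD4 and 14 KO CD4 cells.

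**Figure D3:**
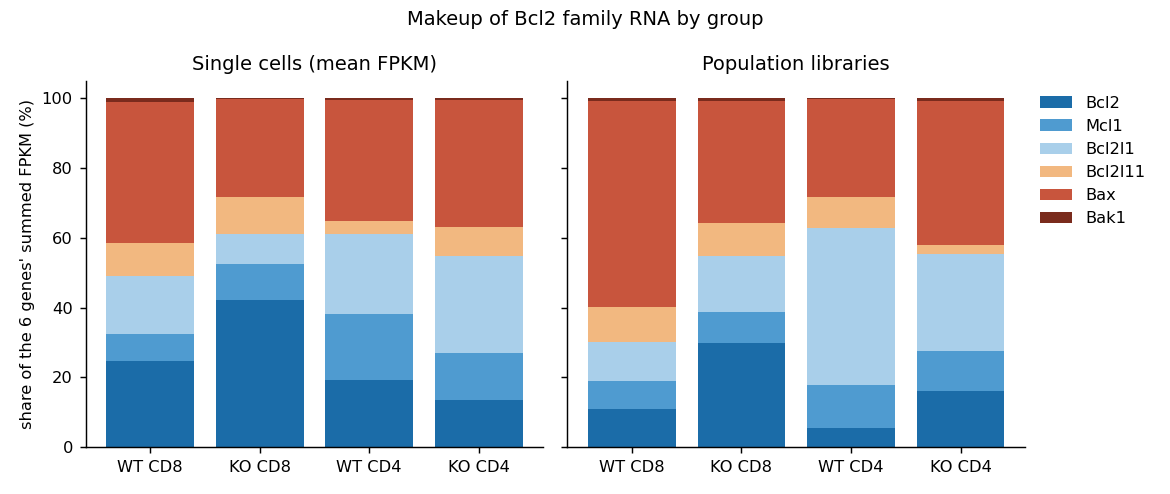
Share of each member in the 6 genes' summed FPKM (vertical axis, percent) by group, from mean FPKM over single cells on the left and from the population library on the right, blue for pro-survival and orange to dark red for death-inducing genes. In single cells Bcl2 takes 42.1% in KO CD8 and 24.7% in WT CD8. Bax takes 58.9% in the WT CD8 population library, the one with the high melanoma marker sum.

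In WT CD8 cells Bcl2 was 2.84 higher with Il7r RNA than without it, and in KO CD8 cells the same difference was -0.17; the difference between the 2 was not tested. Il7r was above 0 in 17 of 67 WT CD8 cells (25.4%, 15.5 to 37.5%) and 54 of 74 KO CD8 cells (72.97%, 61.4 to 82.6%), in all 71 positive and 70 negative cells. In WT, Bcl2 was above 0 in 10 of 17 Il7r-positive cells (58.8%, 32.9 to 81.6%) and 18 of 50 Il7r-negative cells (36%, 22.9 to 50.8%). Its median FPKM was 75.5 (0 to 1117) in the positive and 0 (0 to 358.9) in the negative cells. Mean log2(FPKM + 1) was 4.79 ± 4.38 (n = 17) and 1.95 ± 3.01 (n = 50), and 2.6% of 9758 genes were at least 1 unit higher in the positive cells. The Il7r-positive cells had fewer genes (median 2553 against 3100.5) and fewer reads (207928 against 300597). The ranges overlap, as do the intervals of the shares.

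In KO CD8 cells, Bcl2 was above 0 in 33 of 54 Il7r-positive (61.1%, 46.9 to 74.1%) and 12 of 20 Il7r-negative cells (60%, 36.1 to 80.9%). Median FPKM was 41.1 (0 to 992) and 30.03 (0 to 1838), and the difference of mean log2(FPKM + 1) was -0.17. When all libraries were used, including those under 1000 genes, that difference was 1.81. In the 9 positive and 6 negative cells that could be matched on genes detected it was 3.36. The KO value is thus not settled. Within the Il7r-negative cells Bcl2 was 2.56 higher in KO (n = 20) than in WT (n = 50), and within the Il7r-positive cells KO (n = 54) minus WT (n = 17) was -0.44. The 2 positive classes were unlike in Il7r level, with a median of 54.4 FPKM in WT and 229.1 in KO. Only 10 of the WT cells but 49 of the KO cells were above 10 FPKM. With positive cells limited to these, positive minus negative for Bcl2 was 5.21 in WT and -0.22 in KO. KO minus WT within them was not computed.

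The other 5 members were all lower in Il7r-positive than in Il7r-negative WT CD8 cells, as was the median gene (-0.32). Bax differed by -1.47 and Bcl2l1 by -1.38, and 20.4% of genes were at least 1 unit lower. Bcl2l1 was above 0 in 3 of 17 Il7r-positive cells (17.6%, 3.799 to 43.4%) and 18 of 50 Il7r-negative cells (36%, 22.9 to 50.8%). The Bax difference was 0.077 with every library and 0.013 in 7 positive and 6 negative cells matched on genes detected. In KO CD8 cells Bcl2l11 was the 1 member past the 1-unit mark, at -1.21 in Il7r-positive minus Il7r-negative cells, when 11.8% of genes were lower and 4.19% higher. It was 0.20 higher with every library. The other KO differences ran from -0.37 (Bax) to 0.46 (Mcl1).

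**Figure D4:**
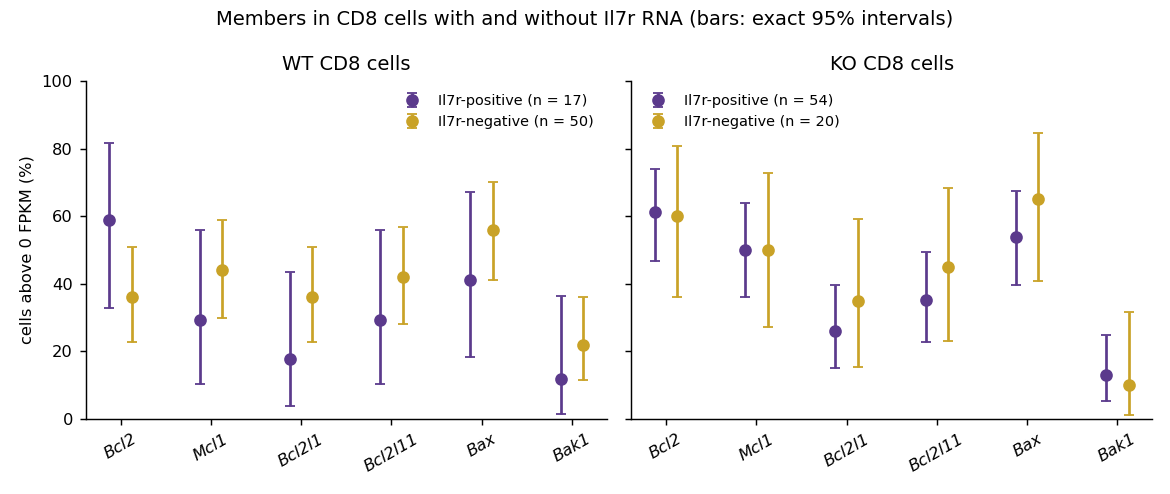
Share of CD8 cells above 0 FPKM for each member (vertical axis, percent) in Il7r-positive and Il7r-negative cells, WT on the left and KO on the right; bars are exact 95% intervals. In WT, Bcl2 is found in 58.8% and 36% of the cells, with the other 5 members lower in Il7r-positive cells, and in KO the Bcl2 shares are 61.1% and 60%.

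The same division was made in CD4 cells after the data were seen. Il7r was above 0 in 52 of 79 WT and 50 of 78 KO CD4 cells. Bcl2 was 0.46 higher in Il7r-positive WT and 1.02 higher in Il7r-positive KO CD4 cells on the log2 scale. Its mean FPKM was lower in both, at 57.1 against 86.0 in WT and 58.1 against 92.7 in KO, so the direction depends on the measure. Bcl2l1 was 1.40 higher in Il7r-positive WT CD4 cells (10.9% of genes were at least 1 unit higher) and differed by -0.36 in KO CD4 cells (11.4% were higher and 1.93% lower). Bax was 1.06 higher in WT and 1.02 in KO, so 2 of 6 members were past 1 unit in each. In cells matched on genes detected Bax was 0.21 in WT and -0.14 in KO, and with at least 2000 genes it was 0.23 in WT. In WT CD4 cells 3.02% of genes were at least 1 unit lower.

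Across single cells the correlations between members were weak, which in sparse data does not show that they vary independently. After group means and genes detected were removed, Pearson's r over all kept cells was highest for Mcl1 with Bcl2l1 (0.15) and lowest for Bcl2 with Bak1 (-0.12). These cells share 4 groups of libraries and differ in depth, and values this weak in sparse data are no finding. Bcl2 and Bcl2l11 RNA were found together in 12 WT and 16 KO CD8 cells and in 2 WT and 6 KO CD4 cells. Among 4822 other genes, those most like Bcl2l1 were Tnfrsf4 (r = 0.31), Tnfrsf9 (0.30) and Il2ra (0.29), which encode the activation receptors OX40, 4-1BB and CD25. Those most like Bcl2 were Rps21, Rpl5 and Gp49a (0.25, 0.25 and 0.24). For Mcl1 they were Zswim8, Rora and Ino80d (0.22, 0.21 and 0.21). They were Tirap, Fosl2 and Taf1d for Bcl2l11 (0.23 to 0.22), Glrx, Ppm1g and Acadl for Bax (0.27 to 0.22) and Prc1, Dcp2 and Rbm14 for Bak1 (0.26 to 0.25). These are the highest of about 4822 values per member in the same sparse cells. How high such values run with no link between genes was not worked out, so they are a description only.

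Other genes of the family were set beside all tested genes. Of 19 further family genes, 9 passed the 10% filter in CD8 cells and 0 were past 1 unit either way. Over all tested genes 5.94% were higher in KO and 3.82% lower, so 0 among 9 genes says little. The median KO minus WT difference was 0.04 (all genes -0.08). Bcl2a1a (0.53) and Bnip3l (-0.62), a gene of mitophagy, had the largest differences; the population values were 7.88 and 0.56. In CD4 cells 1 of 9 was higher in KO and 0 lower, when 7.73% and 0.342% of all tested genes were. The median was 0.41 (all genes 0.17). The 1 gene was Bcl2a1b, a pro-survival gene, at 5.50 ± 4.51 in KO and 3.19 ± 4.40 in WT, a 2.30 higher mean. Its population log2 difference was 0.87. Bcl2a1a, Bcl2a1b and Bcl2a1d are near-identical copies whose reads can be split between them, so these values are uncertain.

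Downstream of the mitochondria, 14 of 15 pathway genes passed the filter in CD8 cells, of which 1 was higher and 2 were lower in KO, with a median of -0.27. Over all tested genes 5.94% were higher and 3.82% lower in KO CD8 cells, with a median of -0.08, and 7.73% and 0.342% in KO CD4 cells, with a median of 0.17. Xiap, which encodes a caspase inhibitor, differed by -1.29 in single cells and 0.15 between populations. Cycs, cytochrome c, was 1.21 higher in KO single cells and -0.93 between the population libraries. In CD4 cells 2 of 13 were higher, Vdac2 (1.42, population 0.87) and Diablo (1.02, population -0.61), and 0 lower, with a median of 0.31. Of 11 death receptor genes in CD8 cells, 1 was higher (Casp8, 1.11) and 1 lower (Tnfrsf1b, -1.04), with a median of -0.21. In CD4 cells 2 of 11 were higher (Tnfrsf1b at 1.28 and Traf2 at 1.24, with population values of -1.10 and -0.92) and 0 lower, with a median of -0.01. Of 6 genes of MCL-1 turnover, such as the ubiquitin ligase gene Huwe1, 5 in CD8 and 4 in CD4 cells passed the filter and 0 were past 1 unit, with medians of 0.22 and 0.43.

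Upstream, receptor and signalling genes of IL-7 and related cytokines had higher means under the KO label for 13 of 15 genes in CD8 and 16 of 16 in CD4 cells, when 42.9% and 66.7% of all tested genes did. In CD8 cells 6 of 15 were at least 1 unit higher and 0 lower, with a median of 0.92, beside 5.94%, 3.82% and -0.08 over all genes. Il7r had the largest difference, 4.20, followed by Il2rg, the shared receptor chain, at 1.90, while Il15ra was -0.54. In CD4 cells 9 of 16 were higher and 0 lower, with a median of 1.07, beside 7.73%, 0.342% and 0.17 over all genes. Cish, a STAT5-induced feedback gene, was 2.84 higher and Socs1 1.83, while Il7r differed by only 0.23. Of 12 transcription factor genes upstream of the family and their regulators, 6 were higher in KO CD8 cells and 0 lower, with a median of 0.59. Tcf7 (2.54) and Rela (2.24) led, and Rela was -0.20 between the population libraries. In CD4 cells 2 of 12 were higher, Nr4a1 (1.96) and Trp53 (1.28), and 0 lower, with a median of 0.45, while Tcf7 was -0.76. Within CD8 cells, Tcf7 and Klf2 were the genes of that list past 1 unit higher in Il7r-positive WT cells, and Tcf7 in Il7r-positive KO cells, where Nfkb1 and Rela were past it on the lower side.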

How the data were processed

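The series holds single-cell and population Smart-seq2 libraries, grouped by genotype, cell type and library kind from the titles. Values are FPKM as deposited, made by the authors with Bowtie and RSEM on mm10 (per the submitters' processing notes) and TMM-normalized (per the labels); versions and annotation are not given in the sources used here. No sample column was left unmapped. The members and gene lists were chosen with earlier results of these data known.

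A single-cell library was kept if 1000 or more genes exceeded 0 FPKM. No doublet caller was run. Means and SDs over cells were taken of log2(FPKM + 1), a scale that understates the fold of low genes and follows the share of cells above 0. With 1 sample per group no p-value was computed. A gene was tested if 10% or more of either group's cells exceeded 0 (at least 1 FPKM in either population library), and a difference of 1 log2 unit marks a gene. Shares carry exact Clopper-Pearson 95% intervals (scipy 1.17.1).

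Reads were estimated from the step worth 1 read, found as the commonest low value of FPKM times length over 3931 genes with 1 transcript in GENCODE M21. In the median cell, 53.99% of those genes' low values came within 0.1 of whole numbers. The estimate refers to library size as scaled by the TMM factor. The estimator and the difference were run on simulated whole read counts, made with the lengths given to the estimator and without TMM scaling. That run cannot show how exact the estimate is for the deposited values. Named genes were the members, 2 genes per list and direction with the greatest KO minus WT difference, and the 3 genes most like each member among those above 0 in at least 20% of cells. Alternatives were pseudocounts, gene minimums, matched cells, cell filters, rescaling, the log of the mean and a higher Il7r limit. The values of 1 gene of the mitochondrial list are not reported here.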

Additional observations from a re-analysis of the deposited data

Results flagged for a closer look

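Differences of opposite sign between cell types or genotypes, with at least one of them past 1 log2 unit, were found for 4 members in single cells. None of these contrasts between groups was tested, since each group is 1 sample. For Bcl2l1, KO minus WT was -0.53 in CD8 and 1.69 in CD4 cells, and CD8 minus CD4 was 0.68 in WT and -1.54 in KO, from the same 4 group means. The WT value of 0.68 was -0.48 in cells matched on genes detected, -0.30 by the log of mean FPKM and -1.80 between the population libraries, so there the signs were not opposite. Its population differences, KO minus WT, were 0.84 in CD8 and -0.40 in CD4. For Bax, CD8 minus CD4 was 1.49 in WT and -0.16 in KO, with population values of 1.21 and 0.01.

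The other cases are Il7r-positive minus Il7r-negative cells, with the CD4 division added after the data were seen. For Bcl2 this was 2.84 in WT CD8, -0.17 in KO CD8 and 1.02 in KO CD4 cells. The KO CD8 value was 1.81 with every library and 3.36 in matched cells. The KO CD4 value was -0.67 by the log of mean FPKM. For Bcl2l1 the WT cells gave -1.38 in CD8 and 1.40 in CD4, and KO CD4 cells -0.36, or 0.78 with every library. For Bcl2l11 the division gave -1.21 in KO CD8 (0.20 with every library) and 0.55 in KO CD4 cells. For Bax the division gave -1.47 in WT CD8 against 1.06 in WT CD4 cells, and -0.37 in KO CD8 against 1.02 in KO CD4 cells. With every library and in matched cells Bax was 0.077 and 0.013 in WT CD8, and 1.75 and 1.53 in KO CD8. In KO CD4 matched cells Bax was -0.14. The opposite signs thus did not hold in every setting.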

How the results depend on the processing

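No paired analysis was possible because each library number occurs once and no result comes from a test. Leaving out a replicate was not possible with 1 sample per group. Bcl2 in KO against WT CD8 cells was past 1 unit under each alternative run on Il7r-positive and Il7r-negative cells together (1.10 to 2.35), and Bcl2 in Il7r-positive against Il7r-negative WT CD8 cells likewise (1.93 to 5.21). The number of members past 1 unit moved by over 1.5 times in the settings below, and by less in 15 others (such as 2 to 3). For KO minus WT in CD8 cells (1) it was 2 with a pseudocount of 0.1, with the log of mean FPKM, and within Il7r-positive or Il7r-negative cells, the last 2 added after seeing the data; Bcl2 was -0.44 within Il7r-positive cells. For KO minus WT in CD4 cells (2) it was 1 with a pseudocount of 10 (Bax) and 1 with the log of mean FPKM (Bcl2l11 at 1.64, with Bax at 0.66 and Bcl2l1 at 0.86). For CD8 minus CD4 in WT cells (2) it was 0 with a pseudocount of 10, 4 with 0.1, 1 with every library and 4 in matched cells; in KO cells (2) it was 1 with a pseudocount of 10. The Bcl2 value in WT was 0.87 with that pseudocount and 0.52 with the log of mean FPKM. For the Il7r division in WT CD8 cells (3) it was 1 with a pseudocount of 10 and with every library. In KO CD8 cells (1) it was 0 with a pseudocount of 10, without cells at 0 for B2m or the Cd3 genes, without cells holding other cell type markers and with the log of mean FPKM, 3 with every library and 4 in matched cells. In WT CD4 cells (2) it was 0 with a pseudocount of 10 and 1 with at least 2000 genes, without cells at 0 for B2m or the Cd3 genes and with the log of mean FPKM. In KO CD4 cells (2) it was 0 with a pseudocount of 10, rescaled to equal library totals and with the log of mean FPKM, and 1 in matched cells. Of 48 member differences, 21 turned sign in at least 1 setting (46 of 516 values), most of them under 1 unit. Bcl2 and Bax in the Il7r division of KO CD8 cells went from under 1 unit below 0 to 1.81 and 1.75 with every library and 3.36 and 1.53 in matched cells. Of differences past 1 unit, signs turned for Bax with the Il7r division in WT CD8 cells (0.077 with every library, 0.013 in matched cells) and KO CD4 cells (-0.14 in matched cells). They also turned for Bcl2l11 in KO CD8 cells (0.20 with every library) and Bcl2 in KO CD4 cells (-0.67 with the log of mean FPKM). Outside the Il7r division, Bcl2 in KO minus WT CD8 cells turned from 1.72 to -0.44 within Il7r-positive cells. Matching on genes detected used 1 bin in each CD8 division by Il7r, with 7 against 6 and 9 against 6 cells. The cause of these moves was not tested.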
